A study of Mus musculus with 7 samples.

Results

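The 10 genes described here belong to fibroblast growth factor (FGF) signaling. They are 3 receptors (Fgfr1, Fgfr2, Fgfr3), 3 ligands (Fgf2, Fgf7, Fgf18) and 4 feedback inhibitors (Spry1, Spry2, Spry4, Dusp6). They were chosen by name, and every probe set with one of these symbols in the platform annotation was used. That gave 15 probe sets for 10 of the 12393 genes analysed, with the brightest probe set, by its mean on the 7 arrays, standing for its gene. The arrays were Affymetrix mouse arrays of total RNA from cells of the bone marrow stroma, sorted by flow cytometry from OsxCre-mCherry;OcnCre-Topaz double transgenic mice aged 4 to 6 weeks. All cells were taken 6 days after tamoxifen. The Ocn+ group (titled Topaz Osteocalcin) had 3 arrays of cells marked green through the promoter of osteocalcin (Ocn), a matrix protein of mature osteoblasts. The Osx+ group (titled mCherry Osterix) had 4 arrays of cells marked red through the promoter of osterix (Osx), which commits progenitors to the osteoblast fate. Cells carrying both colours were not analysed here. The labels do not say which arrays share an animal or pool animals, so the p-values speak of the spread among these samples alone, and that spread may be technical.

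FGF ligands bind receptor tyrosine kinases together with heparan sulfate and switch on the RAS-ERK kinase cascade. Active ERK induces its own inhibitors. Sprouty proteins (Spry) act on the cascade at or above the step of RAS and RAF, and Dusp6 is a phosphatase that removes the activating phosphates from ERK, so the transcripts of both are commonly read as a record of recent signaling. In bone, FGFR1 and FGFR2 act in osteoblast precursors and osteoblasts, FGFR3 restrains cartilage growth, and FGF18 is a ligand that bone and cartilage cells respond to.

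The comparison asks whether the receptors, ligands and feedback genes differ between osteocalcin-marked and osterix-marked cells. The member with the smallest p was Spry1, 2.40-fold brighter in Ocn+ cells, with no overlap between the groups. The receptors differed by 0.39 log2 units or less in either direction in their brightest probe sets, and by 0.52 or less in the others. Fgf18 was 1.80-fold brighter in Ocn+ cells, with overlapping arrays. No member passed in limma, with the group as the only term, after Benjamini-Hochberg adjustment over all genes. The adjusted p-values ran from 0.607 to 0.999, and some alternative fits given at the end had lower ones. Without adjustment 1 of the 10 had a p under 0.05, beside 5.31% of all 12393 genes, of which 0 passed after adjustment. Array values of the groups did not overlap for 1 of the 10, beside 6.90% of all genes. The difference was above 0 for 7 of 10 members, beside 52.7% of all genes, and the median difference was 0.36 log2 units, beside 0.02 over all genes.

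Some properties of the arrays touch several members. Signals are log2 values, and median signals lay between 8.25 and 8.35. The osteoblast genes Sp7 (the gene of osterix, 12.15 to 12.93) and Col1a1 (14.91 to 15.05) were bright in every array. Other osteoblast genes were not, with Mepe at 5.52 and Phex at 7.79 in Osx+ replicate 1. Of the cartilage genes, Acan was bright in both groups, between 12.91 and 13.46 in Ocn+ arrays and between 13.51 and 14.28 in Osx+ arrays. Others were dimmer, with Ihh at 6.07 to 7.36 in Ocn+ arrays and 6.93 to 9.26 in Osx+ arrays. Xist, a transcript of the inactive X chromosome, had a log2 signal of 4.87 to 5.79 in 3 arrays (Ocn+ replicate 1, Osx+ replicates 1 and 3) and of 12.33 to 12.96 in the other 4. Values of the low-Xist and high-Xist arrays did not overlap for 34.3% of genes. The Gapdh control probe sets showed a larger gap of the 3' end over the 5' end in the low-Xist arrays (0.89 to 1.26) than in the high-Xist arrays (0.59 to 0.64). For the Actb control probe sets the classes overlapped, at 0.47 to 0.77 in low-Xist and 0.46 to 0.50 in high-Xist arrays. Differences within each class are given beside the members, and the low-Xist class has a single Ocn+ array. In sorted cells, fewer cells of a type and less RNA per cell cannot be told apart.

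**Figure D1:**
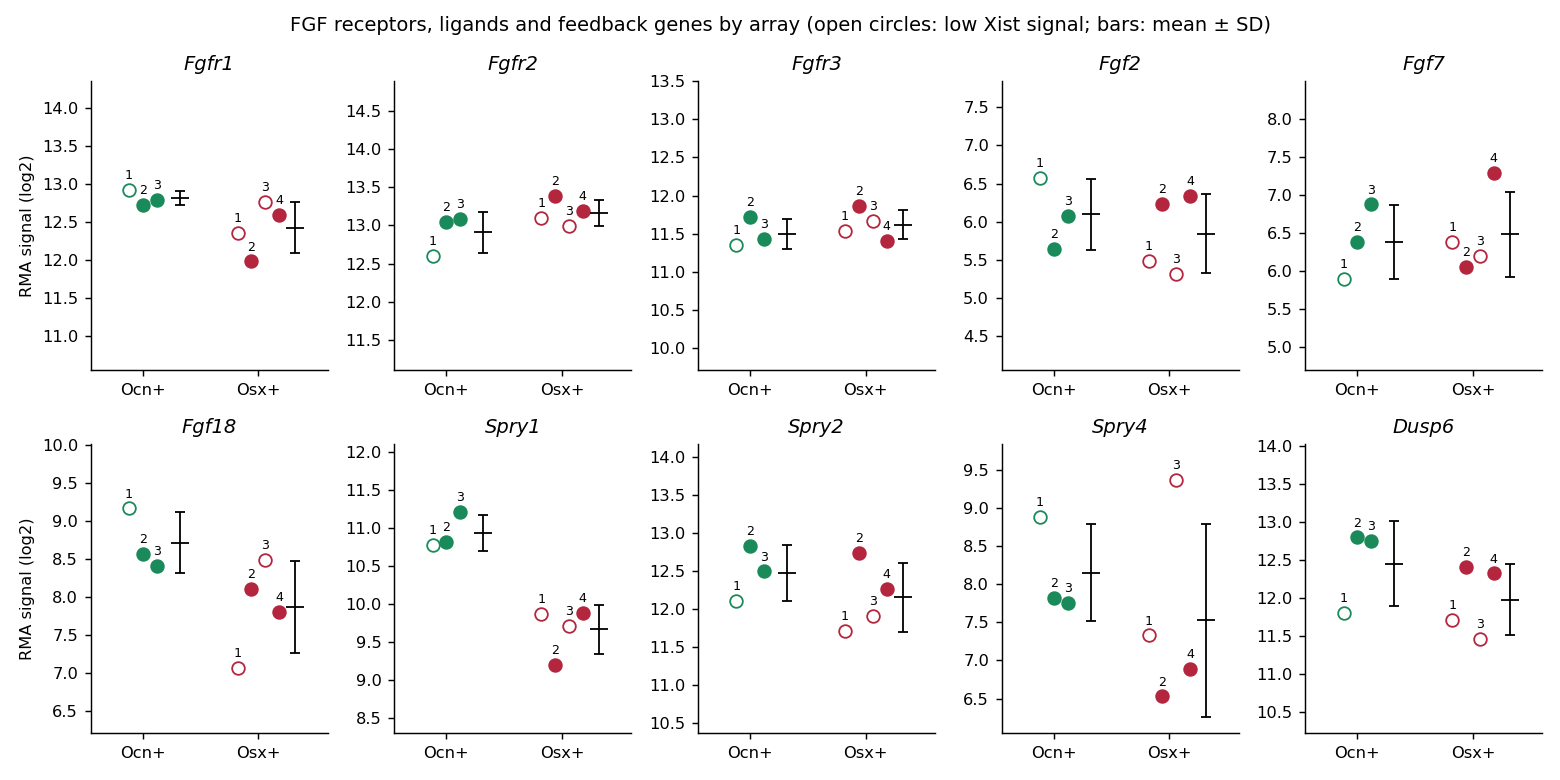
RMA signal (log2, vertical axis, each panel spanning the same number of log2 units) of the 10 members by array, with Ocn+ left of Osx+ and the replicate number beside each point. Open circles are the arrays of low Xist signal, filled circles the others, and bars give mean ± SD (n = 3 Ocn+ and 4 Osx+). Spry1 is the panel in which the groups do not overlap, and in Dusp6 and Spry2 the open circles lie below the filled ones.

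Spry1, a Sprouty inhibitor of receptor tyrosine kinase signaling, has 1 probe set. Its log2 signal was 10.77, 10.81 and 11.20 in Ocn+ replicates 1 to 3, against 9.87, 9.20, 9.71 and 9.88 in Osx+ replicates 1 to 4. The lowest Ocn+ array thus lay above the highest Osx+ array, and the gap between them exceeded the SD of either group. It averaged 10.93 ± 0.24 over the Ocn+ arrays (SD, n = 3), against 9.66 ± 0.32 over the Osx+ arrays (SD, n = 4). The difference was 1.27 (SE 0.23, 95% interval 0.73 to 1.80), and it ranked 15 of 12393 genes by p (unadjusted p = 0.000746, limma). It did not pass over all genes (limma adjusted p = 0.607). With arrays weighted by their fit it did, with a difference of 1.23 and a limma adjusted p of 0.0491. Those weights came from the same arrays, the largest being 6.02 (Ocn+ replicate 2) and the smallest 0.24 (Osx+ replicate 1). Within the Xist classes the difference was 1.47 in the high-Xist and 0.98 in the low-Xist arrays.

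Some marker lists of other cell types differed in mean between the groups in the same arrays. The mean of 20 of 20 endothelial markers was 9.49 to 9.79 in Ocn+ arrays and 6.37 to 9.11 in Osx+ arrays, and all 20 had a difference above 0. Array values of the groups did not overlap for 9 of the 20, beside 6.90% of all genes. Cdh5, the cadherin of endothelial junctions, had the largest difference of the 20, at 9.49 to 10.95 in Ocn+ arrays and 5.80 to 7.62 in Osx+ arrays. The neutrophil list (14 of 16 measured) was at 10.34 to 10.50 in Ocn+ arrays, against 7.35 to 10.001 in Osx+ arrays. Of its genes 12 had a difference above 0 and 2 below. The osteoclast list (11 of 13 measured) was at 10.19 to 10.60 in Ocn+ arrays, against 8.27 to 10.06 in Osx+ arrays. The macrophage list (17 of 17) was at 8.96 to 9.93 in Ocn+ arrays and 10.02 to 11.14 in Osx+ arrays, with 15 differences below 0 and 2 above. The red blood cell list (6 of 8 measured) overlapped, at 5.50 to 7.97 in Ocn+ arrays and 6.08 to 8.47 in Osx+ arrays. The part of these cells in the Spry1 result was not tested. Among the Osx+ arrays, the endothelial mean was 7.93, 6.37, 9.11 and 6.98 in replicates 1 to 4, and Spry1 was at 9.87, 9.20, 9.71 and 9.88. Replicate 2 was thus lowest in both, while replicate 3, highest in the endothelial mean, lay below replicates 1 and 4 in Spry1. Without Osx+ replicate 3 the Spry1 difference was 1.28.

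Spry4, a further Sprouty inhibitor, varied most of the 10 members, with an SD of 1.03 over the 7 arrays. Its signal was 8.88, 7.82 and 7.76 in Ocn+ replicates 1 to 3, against 7.33, 6.53, 9.37 and 6.89 in Osx+ replicates 1 to 4. Osx+ replicate 3 was the highest of all arrays, and the other 3 Osx+ arrays lay below every Ocn+ array. The difference was 0.63 (SE 0.69, 95% interval -0.997 to 2.25, limma adjusted p = 0.999). It was 1.24 when Osx+ replicate 3 was left out, 0.26 when Ocn+ replicate 1 was and 0.29 when Osx+ replicate 2 was, and in none of these did it pass. The other, dimmer probe set was at 6.99, 6.72 and 6.42 in Ocn+ arrays, against 6.04, 5.72, 6.98 and 6.11 in Osx+ arrays, and differed by 0.49 (SE 0.32). There too Osx+ replicate 3 lay among the Ocn+ arrays and the other 3 Osx+ arrays below them, but Ocn+ replicate 1 was highest.

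Among the Osx+ arrays, the brighter Spry4 probe set and the endothelial markers had the same order, from replicate 2 (6.53 for Spry4 and 6.37 for the list mean) through replicates 4 (6.89 and 6.98) and 1 (7.33 and 7.93) to replicate 3 (9.37 and 9.11). The dimmer probe set was lowest in replicate 2 and highest in replicate 3 as well, with replicates 1 (6.04) and 4 (6.11) the other way round. The Ocn+ arrays did not continue that order. Their endothelial means were above 9.11 and their Spry4 signals below 9.37. The mean of the 12 mural cell markers, from cells that wrap vessels, was 9.53 to 10.37 in Ocn+ arrays and 8.80 to 10.29 in Osx+ arrays, where replicate 3 was also highest. The part of vessel cells in the Spry4 values was not tested. The Spry4 difference was 1.08 in the high-Xist and 0.54 in the low-Xist arrays.

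**Figure D2:**
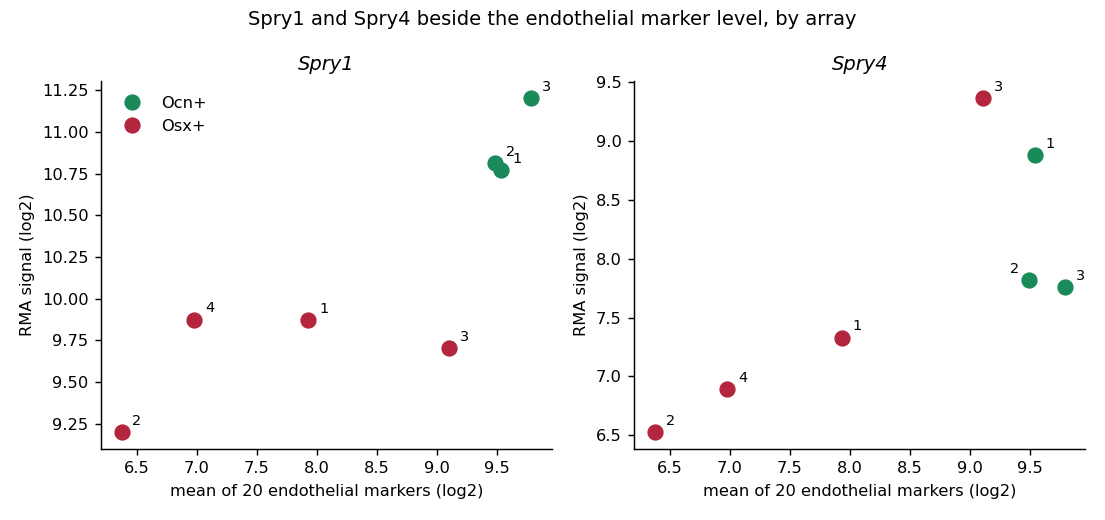
Log2 signal of Spry1 (left) and Spry4 (right) on the vertical axes against the mean log2 signal of 20 endothelial markers on the horizontal axes, 1 point an array with its replicate number, Ocn+ green and Osx+ red. Osx+ replicate 3 has an endothelial mean of 9.11, with Spry1 at 9.71 among the other Osx+ arrays and Spry4 at 9.37 above every other array.

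Spry2 and Dusp6 shared a pattern that did not follow the groups. Spry2, another Sprouty inhibitor, was at 12.11, 12.84 and 12.50 in Ocn+ replicates 1 to 3, against 11.71, 12.74, 11.91 and 12.27 in Osx+ replicates 1 to 4. Dusp6, the ERK phosphatase, was at 11.81, 12.80 and 12.76 in Ocn+ arrays, against 11.72, 12.41, 11.46 and 12.33 in Osx+ arrays. In the brightest probe set of each gene the 3 low-Xist arrays lay below the 4 high-Xist arrays. They were at 11.71 to 12.11 against 12.27 to 12.84 for Spry2 and 11.46 to 11.81 against 12.33 to 12.80 for Dusp6. These were 2 of the 10 members, beside the 34.3% of all genes given above. The cause was not tested.

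Between the groups Spry2 differed by 0.32 (SE 0.30, 95% interval -0.38 to 1.02, limma adjusted p = 0.999). Leaving out 1 array gave 0.14 (without Ocn+ replicate 2) to 0.52 (without Osx+ replicate 2), with 0.18 when Osx+ replicate 1 was missing and 0.51 when Ocn+ replicate 1 was. The other Spry2 probe set, much dimmer at 6.06 to 6.28 in Ocn+ arrays and 6.22 to 6.64 in Osx+ arrays, had a difference of -0.28 (SE 0.16), so the 2 probe sets disagree in sign. In the dimmer probe set the low-Xist arrays (6.06 to 6.37) overlapped the high-Xist arrays (6.09 to 6.64). Dusp6 differed by 0.47 (SE 0.35, 95% interval -0.34 to 1.29, limma adjusted p = 0.999). Without Ocn+ replicate 1 it was 0.80, and it was 0.30 when either Ocn+ replicate 2 or Osx+ replicate 3 was left out. Within the Xist classes the differences were smaller than the pooled one for both genes, at 0.41 in the high-Xist and 0.22 in the low-Xist arrays for Dusp6, and 0.16 and 0.30 for Spry2.

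ERK signaling reaches such feedback genes partly through ETS transcription factors such as Etv4 and Etv5, whose binding sites hold the letters GGAA. The 250 bases before the start of 3 feedback genes are shown for that reason, from RefSeq on build GRCm38.p6, 5′ to 3′ on the gene's strand, with GGAA or its reverse complement TTCC in capitals. They lie at chr3:37639697-37639946 (plus strand, Spry1), chr14:105896820-105897069 (minus strand, Spry2) and chr10:99262981-99263230 (plus strand, Dusp6).
Spry1: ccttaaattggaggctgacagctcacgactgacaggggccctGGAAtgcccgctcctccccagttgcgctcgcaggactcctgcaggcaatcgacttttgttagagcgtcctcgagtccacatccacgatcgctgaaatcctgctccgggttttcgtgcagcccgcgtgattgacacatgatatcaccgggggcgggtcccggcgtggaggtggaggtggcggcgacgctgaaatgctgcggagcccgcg
Spry2: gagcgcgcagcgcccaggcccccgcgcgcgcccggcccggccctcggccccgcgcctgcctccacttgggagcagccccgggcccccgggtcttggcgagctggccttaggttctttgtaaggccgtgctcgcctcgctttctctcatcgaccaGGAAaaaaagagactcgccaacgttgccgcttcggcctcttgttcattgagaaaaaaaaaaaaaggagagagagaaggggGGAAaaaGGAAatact
Dusp6: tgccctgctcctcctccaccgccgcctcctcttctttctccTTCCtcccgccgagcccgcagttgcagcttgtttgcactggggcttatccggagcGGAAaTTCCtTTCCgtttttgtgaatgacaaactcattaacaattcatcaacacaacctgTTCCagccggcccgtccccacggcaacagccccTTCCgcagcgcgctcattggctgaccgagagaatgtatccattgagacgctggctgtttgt

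The letters occurred once in the Spry1 window, 3 times in the Spry2 window and 6 times in the Dusp6 window, counting both strands. At least 1 match was found in 93.45% of the 32851 promoter windows of this length in the table and in 9 of the 9 windows of the 8 members it lists. The longer form CCGGAA, which contains GGAA, was in 12.03% of all windows and in 0 of these 9. The TATA box letters TATAAA were in 12.37% of all windows and in 0 of the 9. The windows of Spry1, Spry2 and Dusp6 held 23, 23 and 16 CG pairs, with G and C making up 62.4%, 62.4% and 56.4% of bases. Fgfr1 and Spry4 have no entry in this table.

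The receptors differed little between the groups. Fgfr1, a receptor found along the osteoblast lineage, was at 12.92, 12.73 and 12.80 in Ocn+ replicates 1 to 3, against 12.36, 11.98, 12.76 and 12.59 in Osx+ replicates 1 to 4. Only Osx+ replicate 3 reached into the Ocn+ range. The difference was 0.39 (SE 0.22, 95% interval -0.12 to 0.90, limma adjusted p = 0.999), and 0.24 without Osx+ replicate 2. It was 0.47 in the high-Xist and 0.36 in the low-Xist arrays. The other Fgfr1 probe set had a difference of 0.52 (SE 0.34), with 11.51, 10.90 and 10.95 in Ocn+ arrays, against 10.85, 9.83, 11.13 and 10.61 in Osx+ arrays. Osx+ replicate 2 was the lowest array in both.

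Fgfr2, a receptor of osteoblast precursors, ran the other way. It was at 12.60, 13.05 and 13.08 in Ocn+ arrays, against 13.10, 13.39, 12.99 and 13.19 in Osx+ arrays, with a difference of -0.25 (SE 0.19, 95% interval -0.70 to 0.19, limma adjusted p = 0.999). Without Ocn+ replicate 1 the difference was -0.10, and it was -0.22 in the high-Xist and -0.44 in the low-Xist arrays. The other Fgfr2 probe set had a difference of -0.36 (SE 0.26), with 9.73 to 10.29 in Ocn+ arrays and 9.95 to 10.82 in Osx+ arrays. Both probe sets of Fgfr2 had a difference below 0 and both of Fgfr1 above 0, and the groups overlapped in all 4.

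Fgfr3, the receptor that restrains growth of cartilage, was the steadiest member, with an SD of 0.19 over the 7 arrays. Its signal was 11.35, 11.71 and 11.42 in Ocn+ arrays, against 11.54, 11.86, 11.67 and 11.41 in Osx+ arrays. The difference was -0.12 (SE 0.18, 95% interval -0.54 to 0.30, limma adjusted p = 0.999). With 1 array left out it ran from -0.23 (without Ocn+ replicate 2) to -0.04 (without Osx+ replicate 2), and it was -0.06 in the high-Xist and -0.25 in the low-Xist arrays. The other probe set had a difference of 0.17 (SE 0.18), so the sign depends on the probe set. The 17 cartilage markers had a list mean of 9.51 to 10.69 in Ocn+ arrays and 10.44 to 12.10 in Osx+ arrays, with a difference below 0 for 15 of 17. Osx+ replicate 2 was highest in the cartilage list and in Fgfr3, while Ocn+ replicate 3, lowest in the cartilage list (9.51), had a Fgfr3 signal of 11.42. The part of cartilage cells in the Fgfr3 values was not tested.

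**Figure D3:**
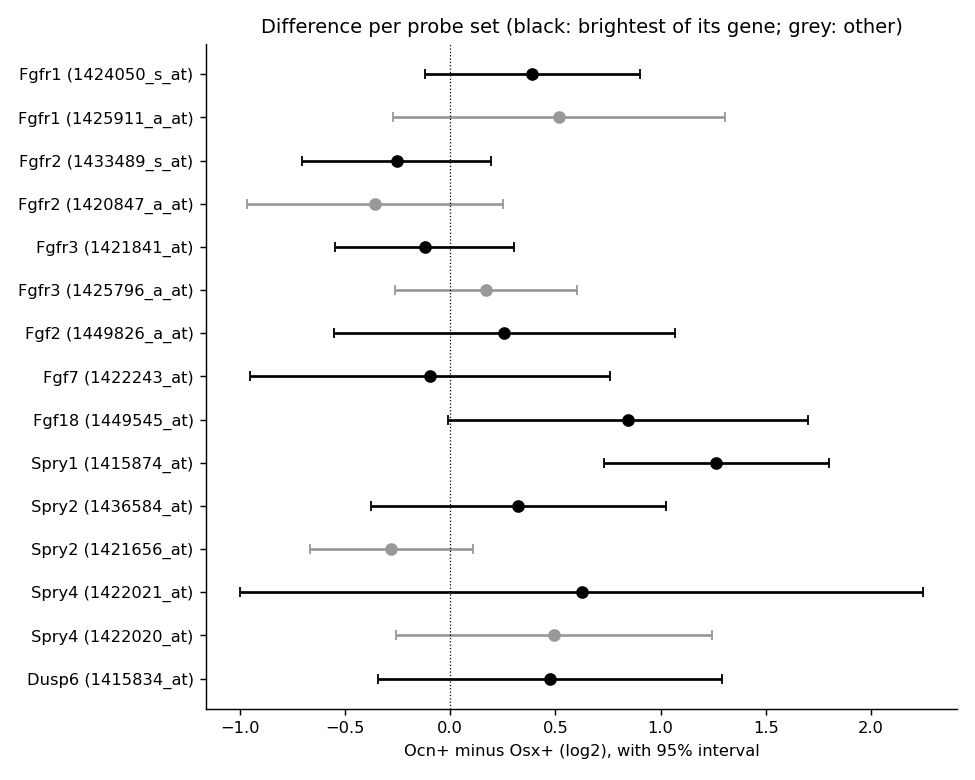
Ocn+ minus Osx+ difference in log2 units (horizontal axis) with its 95% interval from limma for each of the 15 probe sets of the 10 members, black for the brightest probe set of a gene and grey for the others. The Spry1 interval is the 1 that does not reach 0, and Spry2 and Fgfr3 are the 2 genes whose probe sets lie on opposite sides of 0.

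Of the ligands, Fgf18 had the largest difference. Its signal was 9.17, 8.56 and 8.41 in Ocn+ replicates 1 to 3, against 7.06, 8.10, 8.49 and 7.81 in Osx+ replicates 1 to 4. The groups overlapped by a narrow margin, since Osx+ replicate 3 (8.49) stood above Ocn+ replicate 3 (8.41). It averaged 8.71 ± 0.40 over the Ocn+ arrays (SD, n = 3), against 7.87 ± 0.60 over the Osx+ arrays (SD, n = 4). The difference was 0.85 (SE 0.36, 95% interval -0.01 to 1.70, unadjusted p = 0.0519, limma adjusted p = 0.951). It was 0.53 in the high-Xist and 1.39 in the low-Xist arrays, and without any 1 array it lay between 0.58 and 1.05. The osteoblast list (11 of 16 measured) had a mean of 12.32 to 12.72 in Ocn+ arrays and 11.39 to 12.56 in Osx+ arrays. Osx+ replicate 1 was lowest in it and in Fgf18. Osx+ replicate 4, highest of the Osx+ arrays in the list (12.56), had a Fgf18 signal of 7.81. Ocn+ replicate 1, highest in Fgf18 (9.17), was lowest of the Ocn+ arrays in the list (12.32). The part of osteoblast content in the Fgf18 values was not tested.

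Fgf2 and Fgf7 were dim. Fgf2, a ligand that osteoblasts make and store in matrix, was under the 25th percentile of gene signals, and Fgf7, a ligand made by stromal cells for epithelium, under the median, as were Fgf18 and Spry4. No detection calls were used, so whether these signals lie above background is not known. Fgf2 was at 6.58, 5.64 and 6.07 in Ocn+ arrays, against 5.48, 6.23, 5.32 and 6.34 in Osx+ arrays, a difference of 0.26 (SE 0.34, 95% interval -0.55 to 1.07). Its sign turned with the Xist class, at -0.42 in the high-Xist and 1.18 in the low-Xist arrays. Leaving out 1 array moved it between 0.02 (without Ocn+ replicate 1) and 0.48 (without Ocn+ replicate 2), and it was 0.08, 0.14 and 0.42 when Osx+ replicate 3, 1 or 4 was left out. Fgf7 was at 5.90, 6.38 and 6.88 in Ocn+ arrays, against 6.38, 6.05, 6.20 and 7.29 in Osx+ arrays, a difference of -0.09 (SE 0.36, 95% interval -0.95 to 0.76). Leaving out Ocn+ replicate 1 turned it to 0.15, and leaving out Osx+ replicate 4 to 0.18, so 1 array decides its sign. It was -0.04 in the high-Xist and -0.39 in the low-Xist arrays. For both ligands the limma adjusted p was 0.999.

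The wider pathway gave no call either. Lists of ligands, receptors and co-receptors, feedback inhibitors, cascade components and ERK-induced transcription factors held 67 genes other than the members, and 54 of them were measured. In limma 0 of the 54 passed over all genes in either direction (smallest adjusted p = 0.731). Unadjusted p-values under 0.05 were found for 3 of them, all with a difference above 0, beside 3.48% of all genes that had such a p with a difference above 0. Array values of the groups did not overlap for 3 of the 54 in their brightest probe sets (Shc1, Gab2 and Spred2), beside 6.90% of all genes. The median difference of the 54 was 0.08, beside 0.02 over all genes. The 2 genes of smallest p in each list are named below with their values, and none of them passed.

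Shc1, an adaptor that links receptors to RAS, was at 11.56 to 11.62 in Ocn+ arrays and 10.51 to 11.19 in Osx+ arrays, a difference of 0.70 (SE 0.20, limma adjusted p = 0.731). Gab2, a docking protein of the same step, was at 6.10 to 6.37 in Ocn+ arrays and 5.57 to 5.73 in Osx+ arrays, a difference of 0.53 (SE 0.15, limma adjusted p = 0.731). Neither overlapped between the groups in these probe sets, but the other Shc1 probe set did, at 8.65 to 9.21 in Ocn+ arrays and 7.96 to 9.77 in Osx+ arrays (difference 0.20, SE 0.47). Gab2 was under the 25th percentile of gene signals, so whether it lies above background is not known. The 15 measured cascade genes of 22 had a median difference of 0.11, and 11 of the 15 were above 0.

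The 9 measured feedback inhibitors of 13 had a median difference of 0.32, with 6 above 0 and 3 below. Besides the 4 members these include Spred2, a Sprouty-related inhibitor, at 9.38 to 9.42 in Ocn+ arrays and 8.75 to 9.36 in Osx+ arrays, a difference of 0.29 (SE 0.18). Its dimmer probe set had a difference of -0.24 (SE 0.18). Dusp7, a phosphatase related to Dusp6, was at 10.48 to 11.24 in Ocn+ arrays and 9.74 to 11.04 in Osx+ arrays, a difference of 0.42 (SE 0.36). Like Dusp6, Dusp7 was lowest in Osx+ replicate 3.

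Of the transcription factors that ERK induces, 10 of 11 were measured, with a median difference of 0.07. Etv5, an ETS factor induced by FGF, was at 8.38, 9.68 and 9.85 in Ocn+ arrays, against 8.30, 8.70, 7.47 and 9.08 in Osx+ arrays, a difference of 0.92 (SE 0.49, limma adjusted p = 0.999). In this probe set the 3 low-Xist arrays were lowest, as in Dusp6 and the brighter Spry2 probe set. The other Etv5 probe set did not share that order, with 8.42, 8.77 and 8.77 in Ocn+ arrays, against 7.28, 7.09, 9.51 and 8.09 in Osx+ arrays, highest in Osx+ replicate 3 like Spry4. Myc, a growth regulator, differed by 0.42 (SE 0.31).

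Among the 22 ligands the median difference was 0.17, with 16 above 0. Fgf23, the phosphate-regulating hormone of osteocytes, was at 4.75 to 5.56 in Ocn+ arrays and 4.14 to 4.79 in Osx+ arrays, a difference of 0.73 (SE 0.26, unadjusted p = 0.0275, limma adjusted p = 0.898). Fgf23 was likewise under the 25th percentile, as were Fgf15 and Fgfbp1. Fgf15, an endocrine ligand of the gut, had a difference of -0.59 (SE 0.37). The 8 measured receptors and co-receptors of 9 had a median difference of -0.14. Klb, a co-receptor for endocrine ligands, differed by -0.65 (SE 0.43) in its brighter probe set and by -0.087 (SE 0.15) in the other. Fgfbp1, a carrier protein of FGFs, differed by -0.22 (SE 0.23).

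**Figure D4:**
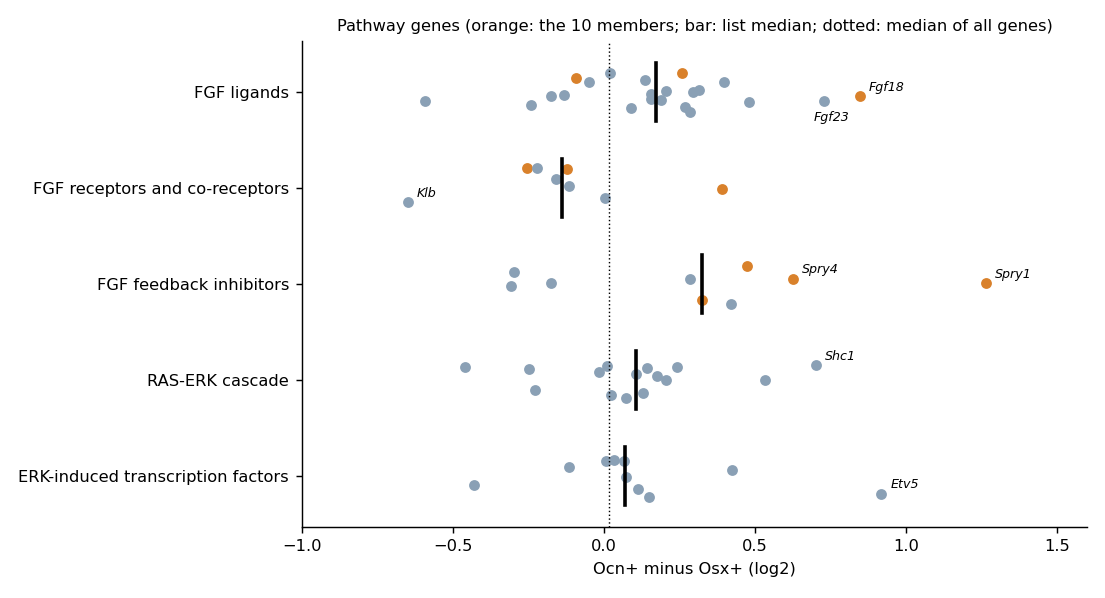
Ocn+ minus Osx+ difference in log2 units (horizontal axis) of each measured gene in 5 pathway lists, 1 point a gene, orange for the 10 members and blue for other genes, with a bar at each list's median and a dotted line at the median of all genes (0.02). The list medians run from -0.14 for receptors and co-receptors to 0.32 for feedback inhibitors, and Spry1 lies farthest to the right.

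The genes closest in pattern were looked up for the 2 members of largest SD, Spry4 and Spry1. Likeness was the root mean square gap between log2 profiles over the 7 arrays after each was centred on its own mean. For Spry4 the closest were Epas1 (gap 0.16), Tle2 (0.18) and C1s1 (0.22). Each of them, like Spry4, was highest in Osx+ replicate 3, with Epas1 at 7.92, Tle2 at 10.13 and C1s1 at 10.78 there. As they were picked for likeness to Spry4, this shared peak is no separate result. For Spry1 the closest were Nnmt (gap 0.21), Apln (0.24) and Zfp316 (0.25). Nnmt was at 11.30 to 11.53 in Ocn+ arrays and 9.67 to 10.82 in Osx+ arrays, and Apln at 8.69 to 9.40 in Ocn+ arrays and 7.56 to 8.46 in Osx+ arrays. Zfp316 was at 7.64 to 7.89 in Ocn+ arrays and 6.42 to 6.95 in Osx+ arrays. None of the 3 overlapped between the groups, beside 6.90% of all genes that did not. Their choice by likeness to Spry1, which does not overlap either, largely fixed this.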

How the data were processed

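Total RNA was amplified with the NuGEN Ovation V2 method and labelled with biotin, per the labels' protocols. The deposited table holds values on the log2 scale, 1 for each probe set on each array, and the submitters' processing notes name RMA as the method. It subtracts background, equalizes the arrays' distributions and combines the probes of a set, so a change in total RNA per cell cannot be read. The software is not given in the sources used here. An array has no read depth, and precision rests on 3 against 4 arrays.

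Of 22690 probe sets 64 were controls, 20380 had 1 gene symbol, 691 several and 1555 none listed. Of the 20380, 20351 had an Entrez identifier found in the RefSeq gene list, and the symbol given there was used. Groups came from sample titles. Ocn+ minus Osx+ was fitted on all 12393 genes in limma 3.58.1 under R 4.3.3 (lmFit, eBayes, no block, two-sided), with a threshold of 0.05 and Benjamini-Hochberg adjustment over all genes. The fit was tested on simulated data. Members, lists and alternatives were chosen with earlier results of these data known. The members were named in full. From each pathway list the 2 other genes of smallest p were named, and for Spry1 and Spry4 the 3 genes of closest pattern. Marker genes named beside lists, the low-Xist class (log2 signal under 8) and the promoter letters were chosen with values known. Alternatives were a replicate block, each array left out, dim genes left out, other normalization, prior, weights or probe set, the Xist class and a threshold of 0.1.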

Additional observations from a re-analysis of the deposited data

How the results depend on the processing

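Over 19 alternatives the Spry1 difference ran from 0.98 (low-Xist arrays) to 1.47 (high-Xist arrays). As every Ocn+ array lay above every Osx+ array, its sign could not turn when arrays were left out or split by class. Dim-gene filters, the other prior and the probe set rules could not change it either, since Spry1 has 1 probe set. The smallest limma adjusted p was 0.0491 (array weights), and only 1 of the 19 alternatives took Spry1 past the threshold. With array weights limma called 97 genes, 1 of them a member (Spry1, difference 1.23). With the Xist class as a term limma called 0 genes and 0 members, and Spry1 differed by 1.27 (limma adjusted p = 0.111). In that fit 3 of 10 members had an unadjusted p under 0.05, beside 1988 of 12393 genes. Within the high-Xist arrays (2 Ocn+ and 2 Osx+) limma called 19 genes and 0 members. There 4 of 10 members had an unadjusted p under 0.05, beside 2442 of 12393 genes, and the smallest limma adjusted p of a member was 0.0964 (Spry4). Leaving out 1 array gave 0 to 3 genes and 0 to 3 probe sets called, with 3 genes and 3 probe sets without Osx+ replicate 2, and 3 genes and 2 probe sets without Osx+ replicate 3. No member was called with an array left out. The sign of 3 weak differences turned. Fgfr3 was at 0.064 with array weights, 0.025 with the mean of all probe sets and 0.17 with the probe set of largest variance. Fgf2 was at -0.36 with array weights and -0.42 within the high-Xist arrays. Fgf7 was at 0.18 with the replicate block and ran from -0.34 to 0.18 with 1 array left out, above 0 without Ocn+ replicate 1 (0.15) or Osx+ replicate 4 (0.18). The cause was not tested. Of 185 member differences recomputed, 176 kept their sign and their side of the threshold. That count is no measure of stability, as part of it was fixed in advance. Dim-gene filters and the other prior left differences unchanged, as did probe set rules for the 5 members with 1 probe set. The replicate block gave the same differences as leaving out Osx+ replicate 4, so 1 turn of Fgf7 was counted again. With 0 members called in the main fit, a member could change side only by gaining a call. The smallest count of members tested was 6, with genes under the median left out.

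Replicate numbers are shared by title only. Over genes, deviations of same-numbered arrays correlated at 0.63, 0.45 and -0.30 for replicates 1, 2 and 3, and Ocn+ replicates 2 and 3 correlated best with Osx+ replicate 4 (0.50 and 0.57). All such correlations were above 0 within a Xist class and below 0 across classes, and Ocn+ and Osx+ replicates 3 differ in class. The correlations thus cannot tell whether arrays share an animal. As the labels name no pairs, the numbers were not taken as pairs. With the replicate block limma called 0 genes, 0 probe sets and 0 members, and Spry1 differed by 1.34 (limma adjusted p = 0.442), a fit that leaves Osx+ replicate 4 without a partner. No member could be given a detection limit, since the table holds no detection calls.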
